A study of Mus musculus with 8 samples.

Results

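The 38 genes described here encode ribosome biogenesis factors, and they were chosen by symbol from a list of RNA polymerase I subunits, small nucleolar ribonucleoprotein (snoRNP) proteins, subunit assembly factors and nucleolar proteins. All 38 were found among the 27179 genes of the count table, and all 38 were among the 13184 genes that passed the filter on low counts. Their RNA was measured in 8 sequencing libraries of mouse natural killer (NK) cells, with 2 libraries in each of 4 groups. The groups were CIS-/- NK cells in vitro and wild type NK cells in vitro, and CIS-/- NK cells ex vivo and wild type NK cells ex vivo. All came from C57BL/6 mice, and the cells were enriched with DX5 (anti-CD49b) beads from spleen, bone marrow and blood. CIS, the product of Cish, is an inhibitor of cytokine receptor signalling, and CIS-/- cells are called CIS-null below. The labels name no age, sex, culture time, cytokine, purity or pooling of mice, and they do not say whether the 2 libraries of a group came from separate mice or cultures. P-values therefore measure the spread between these libraries, which may be technical.

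Ribosomes are made in the nucleolus. RNA polymerase I transcribes a long precursor rRNA, box C/D and box H/ACA snoRNPs guide its methylation and pseudouridylation, and a large set of assembly factors folds, cuts and packages it into the small and large subunits. The pathway is among the main consumers of energy in growing cells, and resting lymphocytes are known to expand it when cytokine or antigen receptors drive them to grow and divide.

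Library totals ran from 21.5 to 28.1 M counts. The targeted gene Cish had 21.2 and 17.2 CPM (counts per M library counts, scaled) in CIS-null in vitro libraries, against 220 and 202 CPM in wild-type in vitro libraries. Ex vivo, Cish had 1.29 and 2.64 CPM in CIS-null libraries, against 9.26 and 9.12 CPM in wild-type libraries. Within each condition both CIS-null libraries lay below both wild-type libraries, by -3.46 on the log2 scale in vitro (SE 0.193, edgeR adjusted p = 9.59e-05) and -2.20 ex vivo (SE 0.250, edgeR adjusted p = 0.0315). All 14 NK cell markers were detected in all 8 libraries. The X-linked Xist and the Y-linked Eif2s3y separated the groups. Xist had 131 and 89.7 CPM in CIS-null in vitro libraries, against 0 and 0.0351 CPM in wild-type in vitro libraries. Ex vivo it had 0.322 and 0.197 CPM in CIS-null libraries, against 120 and 162 CPM in wild-type libraries, which also held 34.1 and 21.7 CPM of Eif2s3y. The sex of the source animals thus differed between the compared groups, and its part in any difference below cannot be told apart from genotype or culture.

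Per length, the 38 genes spanned a wide range of levels. Npm1, a nucleolar histone and ribosome chaperone, had the highest level, with 317 ± 50.5 RPKM (counts per M library counts and per kb of gene length) in CIS-null in vitro cells and 247 ± 11.6 RPKM in wild-type in vitro cells (SD, n = 2 each). Ex vivo it had 98.6 ± 22.9 RPKM in CIS-null cells and 93.2 ± 2.24 RPKM in wild-type cells. Averaged over the 4 groups, Npm1 stood at 189 RPKM, the box H/ACA protein Nhp2 at 92.8 RPKM, and Ncl (nucleolin), an RNA-binding protein that coats rRNA precursors, at 54.5 RPKM. The lowest was Utp20, a large scaffold protein of the small subunit processome, at 3.59 RPKM. The other role groups were led by Nop58 among the box C/D proteins (53.2 RPKM), Polr1c among the RNA polymerase I subunits (48.8 RPKM), Bop1 among the large subunit factors (37.8 RPKM), Rrp9 among the small subunit factors (31.2 RPKM) and Ifrd2 among the genes with other roles (13.0 RPKM). Levels differed widely within a single complex. In the box C/D complex, where the methyltransferase Fbl sits on a scaffold of Nop56 and Nop58, Fbl averaged 8.50 RPKM, against 29.1 RPKM for Nop56 and 53.2 RPKM for Nop58. Fbl and Mrto4 have pseudogenes that carry their symbol, and pseudogenes under other names were not searched for. For 11 of the 38 genes an exon overlaps an exon of another protein-coding gene on either strand (Nop56, Dkc1, Nhp2, Heatr1, Rrp9, Tsr1, Bop1, Pes1, Wdr12, Noc2l and Gnl3). A further 6 (Polr1a, Nop58, Wdr43, Nop14, Ncl and Wdr4) have such an overlap only with genes of other kinds. With the counting strand not given, values of all these genes are uncertain.

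**Figure D1:**
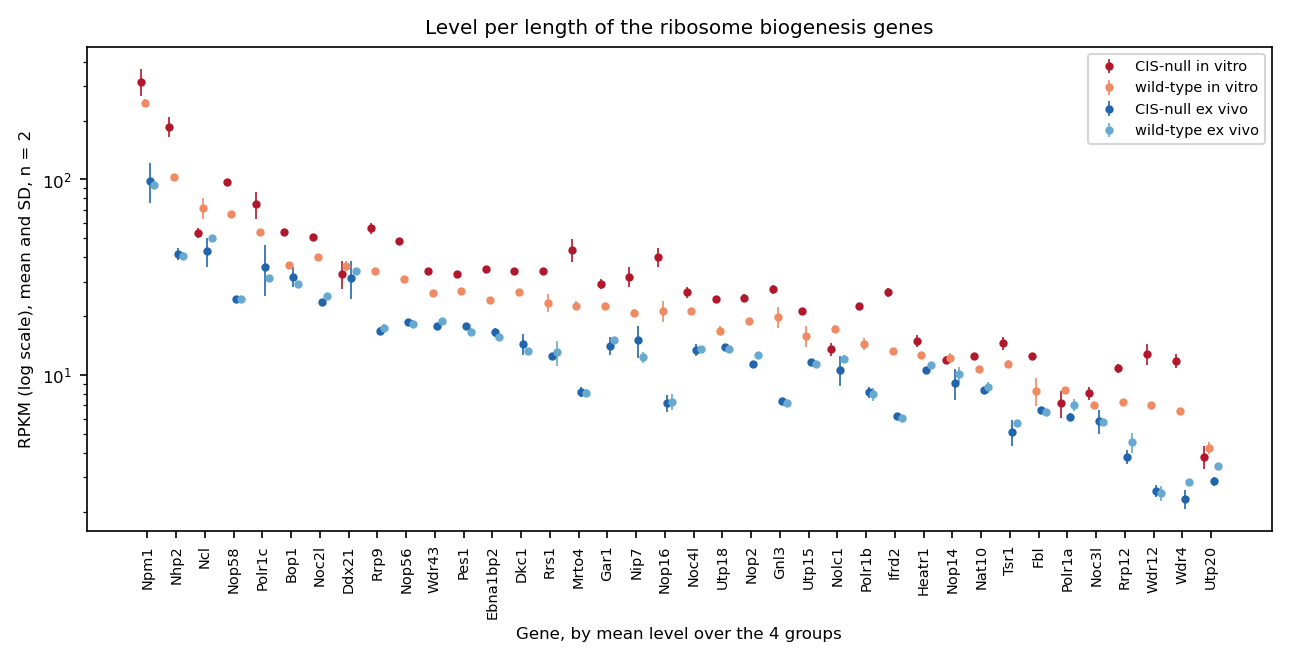
Level per length of each of the 38 genes (RPKM, log scale), ordered by the mean over the 4 groups, with points for group means and bars for SD (n = 2). Npm1 (189 RPKM on average) lies at the high end and Utp20 (3.59 RPKM) at the low end, and for most genes the CIS-null in vitro points lie above the others.

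Summed over all 38 genes, the level was 3741 and 3867 CPM in CIS-null in vitro libraries and 3165 and 3059 CPM in wild-type in vitro libraries. Ex vivo it was 1792 and 1894 CPM in CIS-null libraries and 1939 and 1893 CPM in wild-type libraries. Every in vitro library lay above every ex vivo library. In bulk RNA such as this, a change in the makeup of the cells and a change in the RNA of each cell cannot be told apart.

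**Figure D2:**
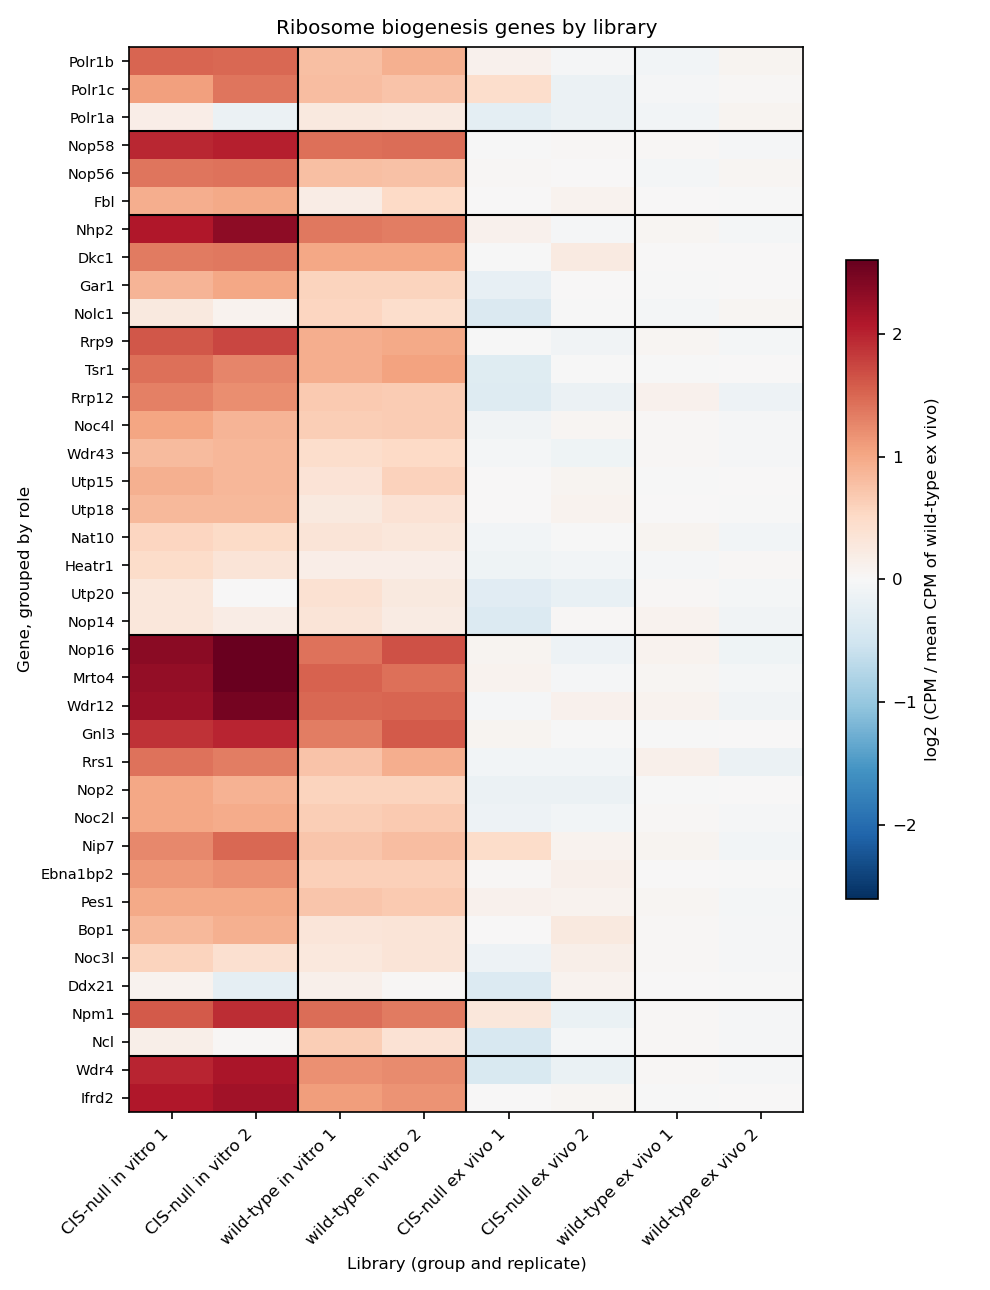
Each row is a gene, grouped by role, and each column a library; the colour is log2 of the CPM over the mean CPM of the wild-type ex vivo libraries. The in vitro columns are red for most rows and deepest in CIS-null cells, while rows such as Ddx21 and Polr1a stay close to white.

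The promoters of the genes were searched for the E-box CACGTG, a palindrome read on both strands at once and bound by MYC and related factors. A RefSeq promoter window (GRCm38.p6, 250 bases before to 50 after the start) was found for 33 of the 38 genes, and 6 of the 33 (18.2%) held the motif, against 11.6% of 10007 tested genes and 8.09% of 27025 genes with a window. In the 250 bases before the start it was held by 2 of the 33 (6.06%), against 9.77% of tested genes and 6.86% of all genes. The windows of Nop16, Wdr12 and Mrto4, the genes with the highest log2 fold change with culture in wild-type cells, do not hold these letters. The 6 sites are shown because they are all the matches found, each with up to 10 bases on either side and the motif in capitals, 5′ to 3′ on the strand of the gene.
Nop2 (chr6:125131813-125131838, + strand): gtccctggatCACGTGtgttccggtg
Utp18 (chr11:93885771-93885796, - strand): gagcgccggtCACGTGgcttgcggcg
Pes1 (chr11:3963967-3963992, + strand): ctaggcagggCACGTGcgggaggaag
Tsr1 (chr11:74898094-74898119, + strand): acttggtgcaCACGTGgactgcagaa
Wdr43 (chr17:71616222-71616247, + strand): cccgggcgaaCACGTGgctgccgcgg
Utp20 (chr10:88826765-88826787, - strand): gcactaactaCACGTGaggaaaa

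In Nop2 and Utp18 the motif lies before the start, with its first base at -60 in Nop2 and -20 in Utp18. The 250 bases before the start of both are given with the motif in capitals.
Nop2 (chr6:125131633-125131882, + strand): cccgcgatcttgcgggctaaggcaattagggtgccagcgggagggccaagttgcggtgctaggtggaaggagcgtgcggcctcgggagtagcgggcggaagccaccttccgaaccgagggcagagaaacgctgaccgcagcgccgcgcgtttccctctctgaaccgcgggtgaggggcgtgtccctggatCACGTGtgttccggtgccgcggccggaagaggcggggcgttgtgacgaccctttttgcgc
Utp18 (chr11:93885767-93886016, - strand): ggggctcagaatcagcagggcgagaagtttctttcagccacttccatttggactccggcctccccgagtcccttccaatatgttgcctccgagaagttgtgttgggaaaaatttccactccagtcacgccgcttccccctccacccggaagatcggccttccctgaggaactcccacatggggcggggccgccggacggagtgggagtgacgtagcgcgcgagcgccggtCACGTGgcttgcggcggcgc
Nop2 had 67.3 and 62.8 CPM in CIS-null in vitro libraries, 49.5 and 49.6 CPM in wild-type in vitro libraries, 30.2 and 29.8 CPM in CIS-null ex vivo libraries and 33.1 and 33.5 CPM in wild-type ex vivo libraries. Its libraries did not overlap between the culture conditions. Utp18 had 64.0 and 63.6 CPM in CIS-null in vitro libraries, 42.5 and 45.8 CPM in wild-type in vitro libraries, 35.6 and 37.5 CPM in CIS-null ex vivo libraries and 35.7 and 35.2 CPM in wild-type ex vivo libraries. A match describes the letters of the window and says nothing about binding.

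Culture was compared first in wild-type cells, in vitro against ex vivo. Of the 38 genes, 32 rose and 0 fell at an adjusted p under 0.05 (edgeR quasi-likelihood F test, Benjamini-Hochberg over all 13184 genes tested), where 32.1% of all genes tested rose and 31.6% fell. The median log2 fold change of the 38 was 0.67, against -0.00 for all genes tested, and 10 of the 38 rose at least 2-fold, where 14.7% of all genes tested did. For all 38 genes both in vitro libraries lay above both ex vivo libraries, which held for 43.5% of all genes tested, with 44% the other way. With an alternative scaling, test, filter or 1 library left out, the count that rose ran from 27 to 36, and 26 of the 32 calls were kept in every alternative. The calls lost in some were those of Utp20, Nat10, Utp18, Bop1, Ncl and Nolc1.

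The large subunit factors held the genes with the largest changes, and 11 of the 13 rose. Nop16, known from yeast as a component of large subunit precursors, had 33.8 and 40 CPM in wild-type in vitro libraries, compared with 13.5 and 11.8 CPM in wild-type ex vivo libraries. Its log2 fold change was 1.54 (SE 0.140, edgeR adjusted p = 3.3e-05). Wdr12 forms with Pes1 and Bop1 the PeBoW complex, which is needed to process the large subunit rRNA. Wdr12 had 23.5 and 23.9 CPM in vitro, against 8.92 and 7.89 CPM ex vivo, and the log2 fold change was 1.5 (SE 0.131, edgeR adjusted p = 2.69e-05). Its partners rose with log2 fold changes of 0.71 for Pes1 (SE 0.0831, edgeR adjusted p = 0.000139) and 0.32 for Bop1 (SE 0.0994, edgeR adjusted p = 0.0201). Mrto4, whose yeast counterpart holds the place of the ribosomal stalk protein during assembly, had 21.8 and 20.2 CPM in vitro, against 7.78 and 7.26 CPM ex vivo, and the log2 fold change was 1.48 (SE 0.134, edgeR adjusted p = 3.22e-05). Gnl3 (nucleostemin), a nucleolar GTPase, had a log2 fold change of 1.47. The other large subunit factors that rose, Rrs1, Nip7, Noc2l, Ebna1bp2 and the rRNA methyltransferase Nop2, whose promoter is shown above, had values between 0.57 and 0.84. Noc3l did not pass, at 0.30 (SE 0.119, edgeR adjusted p = 0.0543).

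Ddx21, a nucleolar RNA helicase, was the gene nearest to no change. It had 178 and 165 CPM in wild-type in vitro libraries, compared with 163 and 162 CPM in wild-type ex vivo libraries, and its log2 fold change was 0.08 (SE 0.159, edgeR adjusted p = 0.682). The libraries of the 2 groups did not overlap, but by less than the SE of the difference, and the sign turned to -0.02 without wild-type in vitro replicate 1.

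Of the 11 small subunit factors, 9 rose in wild-type cells. The largest were Tsr1, a late small subunit factor, at a log2 fold change of 1.00, and Rrp9, a protein of the U3 snoRNP, at 0.97. Rrp9 had 52.1 and 53.1 CPM in vitro, against 27.7 and 26.1 CPM ex vivo. Rrp12, Noc4l, Wdr43, Utp15, Utp18, Utp20 and the rRNA acetyltransferase Nat10 rose by 0.31 to 0.68 on the log2 scale. Heatr1, a processome scaffold, had 86.4 and 86.1 CPM in vitro, against 75 and 77.6 CPM ex vivo, and its log2 fold change of 0.18 did not pass (SE 0.0861, edgeR adjusted p = 0.103), nor did that of Nop14 (0.27, edgeR adjusted p = 0.111).

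Among the snoRNP proteins, Nop58 had 131 and 132 CPM in wild-type in vitro libraries, compared with 49.7 and 47.1 CPM ex vivo, and the log2 fold change was 1.44 (SE 0.0841, edgeR adjusted p = 3.02e-06). Nop56 rose by 0.77, while Fbl, at 0.37, narrowly missed the threshold (SE 0.148, edgeR adjusted p = 0.0555). All 4 genes of the box H/ACA group rose: Nhp2 by 1.35, the pseudouridine synthase Dkc1 by 1.01, Gar1 by 0.58 and Nolc1, a snoRNP chaperone, by 0.50. Dkc1 is X-linked, and the wild-type groups differ in Xist as given above.

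Of the RNA polymerase I subunits, Polr1b rose by 0.86 and Polr1c, which RNA polymerase III shares, by 0.77. Polr1a, the largest subunit, had 51.6 and 50.4 CPM in vitro, against 40.9 and 45.2 CPM ex vivo, and did not pass (log2 fold change 0.24, SE 0.121, edgeR adjusted p = 0.106). Npm1 had 438 and 410 CPM in vitro, against 163 and 157 CPM ex vivo (log2 fold change 1.40, edgeR adjusted p = 0.000149), and Ncl rose by 0.51. Ifrd2, found on inactive ribosomes in rabbit reticulocytes, rose by 1.13, and Wdr4, a subunit of a tRNA methyltransferase, by 1.21.

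In CIS-null cells the same comparison, in vitro against ex vivo, had 35 of the 38 genes higher and 0 lower by edgeR at an adjusted p under 0.05, where 34.8% of all genes tested were higher and 37.5% lower. The median log2 fold change was 1.08, against -0.05 for all genes tested, and 22 of the 38 rose at least 2-fold, where 18.8% of all genes tested did. Nop16 had 64.1 and 75.2 CPM in CIS-null in vitro libraries, against 13.3 and 11.6 CPM in CIS-null ex vivo libraries, and the log2 fold change was 2.48 (SE 0.142, edgeR adjusted p = 1.96e-06). Mrto4 had 36.7 and 44.5 CPM in vitro, against 7.97 and 7.36 CPM ex vivo, and the log2 fold change was 2.41 (SE 0.135, edgeR adjusted p = 1.83e-06). Wdr4 had 43.4 and 48.5 CPM in vitro, against 8.38 and 9.80 CPM ex vivo, and the log2 fold change was 2.33 (SE 0.120, edgeR adjusted p = 1.15e-06). For these genes the lowest in vitro library held more than 4 times the CPM of the highest ex vivo library. For 37 of the 38 genes both in vitro libraries lay above both ex vivo libraries, against 41.4% of all genes tested, with 44% the other way. With an alternative scaling, test, filter or 1 library left out, the count that rose ran from 32 to 38, and 32 of the 35 calls were kept in every alternative. The calls lost in some were those of Nop14, Utp20 and Nolc1. All 11 small subunit factors, Nop14 and Utp20 included, and all 3 box C/D proteins rose in CIS-null cells in the main fit.

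The 3 genes that did not pass in CIS-null cells were Ddx21, Polr1a and Ncl. Ddx21 had 174 and 138 CPM in CIS-null in vitro libraries, against 126 and 172 CPM in CIS-null ex vivo libraries, and its libraries overlapped (log2 fold change 0.07, SE 0.159, edgeR adjusted p = 0.724). Its value depended on the setting, at -0.06 with library totals in place of the trimmed mean of M values and 0.46 (edgeR adjusted p = 0.00613) with the length trend of each library removed. Polr1a had 48.8 and 39.0 CPM in vitro, against 36.1 and 38.6 CPM ex vivo (log2 fold change 0.23, SE 0.122, edgeR adjusted p = 0.115). Ncl had 458 and 423 CPM in vitro, against 312 and 399 CPM ex vivo (log2 fold change 0.31, SE 0.137, edgeR adjusted p = 0.0689). The fold changes with culture moved with gene length, with a Spearman rho over the 38 genes of -0.54 in CIS-null cells and -0.53 in wild-type cells, against -0.31 and -0.23 over all genes tested, given as descriptions. With the length trend removed all 38 genes were higher in CIS-null cells, where 34.3% of all genes tested were. Ncl was then higher by 1.05 (edgeR adjusted p = 1.69e-05) and Polr1a by 0.78 (edgeR adjusted p = 4.38e-05). In wild-type cells 35 of the 38 were higher with the trend removed, where 32.6% of all genes tested were.

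**Figure D3:**
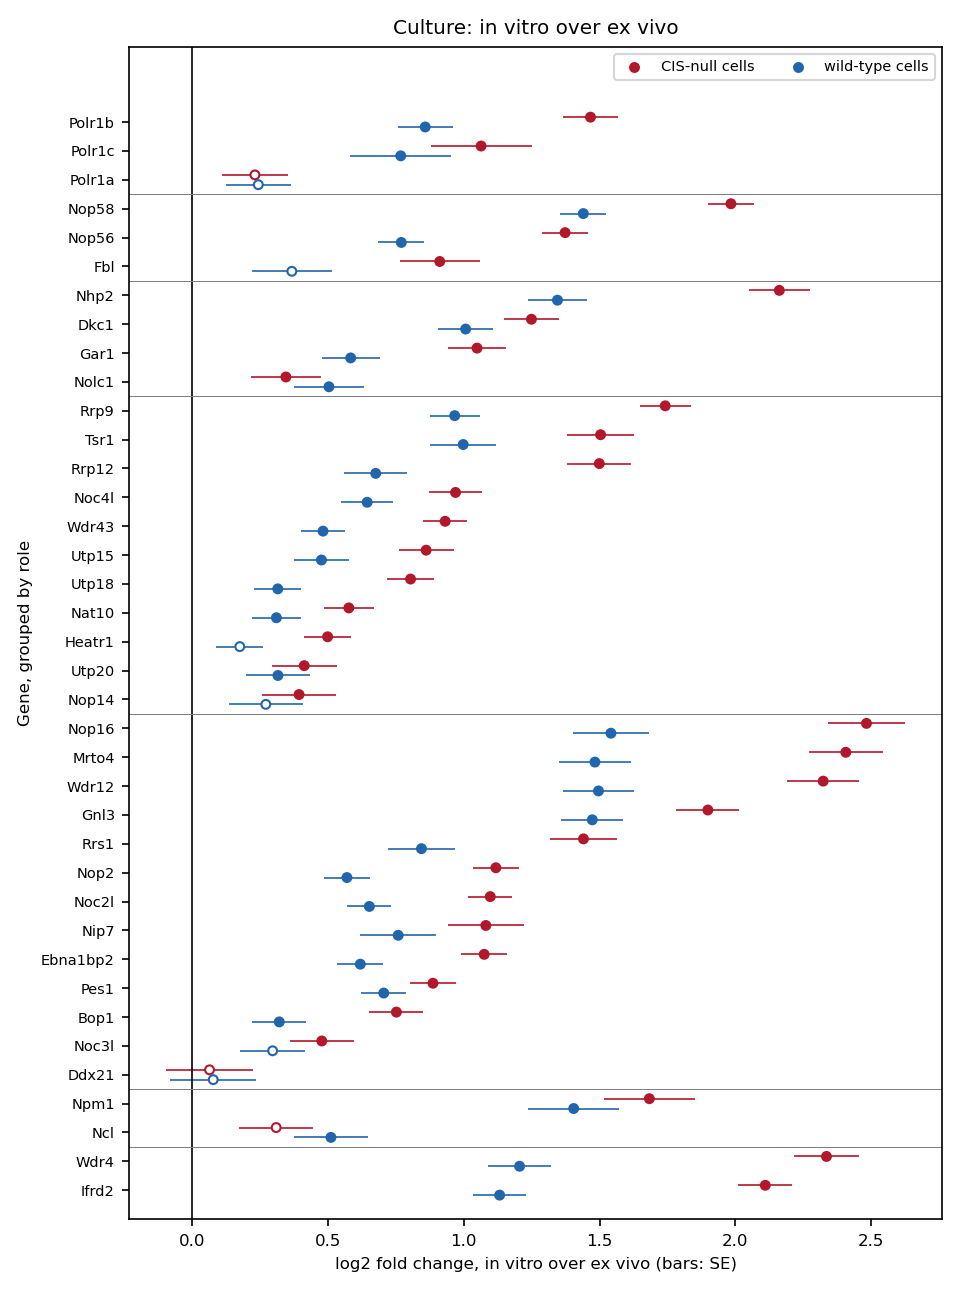
Log2 fold change of each gene, in vitro over ex vivo, in CIS-null cells (red) and wild-type cells (blue), with bars for the SE; filled points passed an edgeR adjusted p of 0.05. All 76 points lie above 0, from 0.07 for Ddx21 in CIS-null cells to 2.48 for Nop16 in CIS-null cells.

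Genes that mark dividing cells and other cell types also stood at other levels in culture. The summed level of 14 genes of dividing cells was 1600 and 1680 CPM in CIS-null in vitro libraries and 1840 and 1900 CPM in wild-type in vitro libraries, compared with 470 and 611 CPM in CIS-null ex vivo libraries and 559 and 569 CPM in wild-type ex vivo libraries. All 14 were above ex vivo in both in vitro groups, without overlap of libraries. Of the 14 NK cell genes, 9 lay below ex vivo and 3 above in CIS-null cells without overlap. In wild-type cells 10 lay below and 3 above. The granzyme genes Gzma and Gzmb were higher in vitro in both genotypes. Without them the other 12 summed to 11700 and 11700 CPM in CIS-null in vitro libraries, against 20900 and 20600 CPM ex vivo. In wild-type libraries the 12 summed to 11100 and 9980 CPM in vitro, against 19400 and 19400 CPM ex vivo. Of the 14 B cell and plasma cell genes, 13 were under 1 CPM in every in vitro library. Without Ighm, which made up nearly all the rest, they summed to 0.702 to 1.12 CPM in vitro, against 51.8 to 408 CPM ex vivo. The 10 neutrophil genes summed to at most 0.04 CPM in vitro, against 5.74 to 10.8 CPM ex vivo. Of the 12 monocyte and macrophage genes, 8 were under 1 CPM in every in vitro library. Without overlap, 9 lay below ex vivo and 2, Ccr2 and Cd68, above, in both genotypes. All 12 summed to 1240 and 1530 CPM in CIS-null in vitro libraries, against 2110 and 1870 CPM ex vivo. In wild-type cells they summed to 1780 and 1700 CPM in vitro, against 1680 and 1610 CPM ex vivo. Without Ccr2 and Ly6c2 the list summed to 18.3 to 29.2 CPM in vitro, against 121 to 223 CPM ex vivo. The sum of the T cell list was higher in vitro in both genotypes, and that of the basophil and mast cell list in wild-type cells. The 14 T cell genes summed to 1460 and 1510 CPM in CIS-null in vitro libraries, against 459 and 316 CPM in CIS-null ex vivo libraries. In wild-type cells they summed to 635 and 534 CPM in vitro, compared with 363 and 404 CPM ex vivo. Single T cell genes went both ways without overlap, with 7 above ex vivo and 3 below in CIS-null cells, and 5 above and 6 below in wild-type cells. Without Cd3d, Cd3e and Cd3g the other 11 summed to 640 and 714 CPM in CIS-null in vitro libraries, against 423 and 297 CPM ex vivo. In wild-type cells these 11 summed to 466 and 372 CPM in vitro, against 337 and 370 CPM ex vivo. The 10 basophil and mast cell genes summed to 473 and 438 CPM in CIS-null in vitro libraries, against 583 and 524 CPM in CIS-null ex vivo libraries. In wild-type cells they summed to 777 and 992 CPM in vitro, against 480 and 472 CPM ex vivo. Kit alone had 748 and 955 CPM in vitro in these cells, against 84.8 and 83.1 CPM ex vivo. Cma1 fell in both genotypes, in CIS-null cells from 424 and 414 CPM ex vivo to 0.424 and 1.24 CPM in vitro. Without Kit and Cma1 the sum of the other 8 rose, from 34.0 and 16.1 CPM to 51.2 and 73.6 CPM in CIS-null cells. In wild-type cells that sum rose from 8.88 and 7.82 CPM to 28.3 and 36.8 CPM. Of the 10, 7 lay below ex vivo and 3 above in CIS-null cells without overlap. In wild-type cells 6 lay below and 3 above. The part of these cell types in the culture differences was not tested.

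The genotype comparison was then made within each condition. In vitro, CIS-null against wild type, 26 of the 38 genes were higher and 0 lower by edgeR at an adjusted p under 0.05, where 11% of all genes tested were higher and 14.6% lower. The median log2 fold change of the 38 was 0.44, against 0.00 for all genes tested. These groups also differed in Xist and Eif2s3y, so genotype and sex cannot be told apart here. For 32 of the 38 genes both CIS-null libraries lay above both wild-type libraries, and for 3 below, against 33.7% above and 35.1% below among all genes tested. The count depended on single libraries. It was 12 higher without wild-type in vitro replicate 1, 13 without CIS-null in vitro replicate 2 and 17 without wild-type in vitro replicate 2, while over all genes the called number was 3374, and 500 without CIS-null in vitro replicate 2. It also depended on scaling. With library totals, which shifted the median of all genes to -0.13, 17 were higher and 2 lower (Nolc1 and Ncl). Of all genes tested, 5.64% were then higher, and 2773 were lower. The gap between the medians of the 38 and of all genes was 0.44 with both scalings. Rescaling shifts all genes nearly alike, so this gap could hardly move and is no test of the counts.

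The largest difference was that of Ifrd2, with 50.6 and 54.6 CPM in CIS-null in vitro libraries, against 25.4 and 27.0 CPM in wild-type in vitro libraries. Its log2 fold change was 1.01 (SE 0.0936, edgeR adjusted p = 0.0020). Mrto4 had 36.7 and 44.5 CPM in CIS-null libraries, against 21.8 and 20.2 CPM in wild-type libraries, and the log2 fold change was 0.95 (SE 0.125, edgeR adjusted p = 0.00409). Nop16 had 64.1 and 75.2 CPM in CIS-null libraries, against 33.8 and 40 CPM in wild-type libraries, and the log2 fold change was 0.92 (SE 0.131, edgeR adjusted p = 0.00508). For all 3, both CIS-null libraries lay above both wild-type libraries. Ifrd2 and Rrp9 lie on chromosome 9 in GRCm38, 0.285 and 0.811 Mb from Cish. Neither passed ex vivo, where Ifrd2 had 12.0 and 12.4 CPM in CIS-null libraries, against 11.9 and 12.0 CPM in wild-type libraries. Rrp9 had 26.6 and 25.1 CPM in CIS-null ex vivo libraries, against 27.7 and 26.1 CPM in wild-type ex vivo libraries. The part of a position near Cish was not tested.

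By role, 11 of the 13 large subunit factors were higher in CIS-null in vitro cells, among them all 3 PeBoW genes: Wdr12 by a log2 fold change of 0.87, Bop1 by 0.56 and Pes1 by 0.28. All 3 box C/D proteins were higher, Nop56 by 0.63, Fbl by 0.59 and Nop58 by 0.55. Nop58 had 188 and 197 CPM in CIS-null libraries, against 131 and 132 CPM in wild-type libraries. Of the box H/ACA group, Nhp2 (0.86), Gar1 (0.37) and Dkc1 (0.36) were higher and Nolc1 was not. The 6 small subunit factors that were higher were Rrp9, Rrp12, Utp18, Utp15, Wdr43 and Noc4l, with log2 fold changes from 0.31 to 0.72. Polr1b was higher by 0.65, and Wdr4 by 0.85. Of the 26 calls, 12 were kept in every alternative tried: Ebna1bp2, Ifrd2, Mrto4, Nhp2, Nop16, Nop56, Nop58, Polr1b, Rrp9, Utp18, Wdr12 and Wdr4.

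The lowest values were those of Ncl, Nolc1 and Polr1a, and none passed. Ncl had 458 and 423 CPM in CIS-null in vitro libraries, against 642 and 539 CPM in wild-type in vitro libraries, and the log2 fold change was -0.42 (SE 0.137, edgeR adjusted p = 0.0533). Nolc1 had 52.2 and 46.6 CPM in CIS-null libraries, against 64.4 and 60.2 CPM in wild-type libraries, and the log2 fold change was -0.34 (SE 0.128, edgeR adjusted p = 0.0863). Polr1a had 48.8 and 39.0 CPM in CIS-null libraries, against 51.6 and 50.4 CPM in wild-type libraries, and the log2 fold change was -0.22 (SE 0.120, edgeR adjusted p = 0.214). In each case both CIS-null libraries lay below both wild-type libraries. Npm1, the most abundant of the 38, had 482 and 605 CPM in CIS-null libraries, against 438 and 410 CPM in wild-type libraries, and did not pass either (log2 fold change 0.36, SE 0.164, edgeR adjusted p = 0.139).

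**Figure D4:**
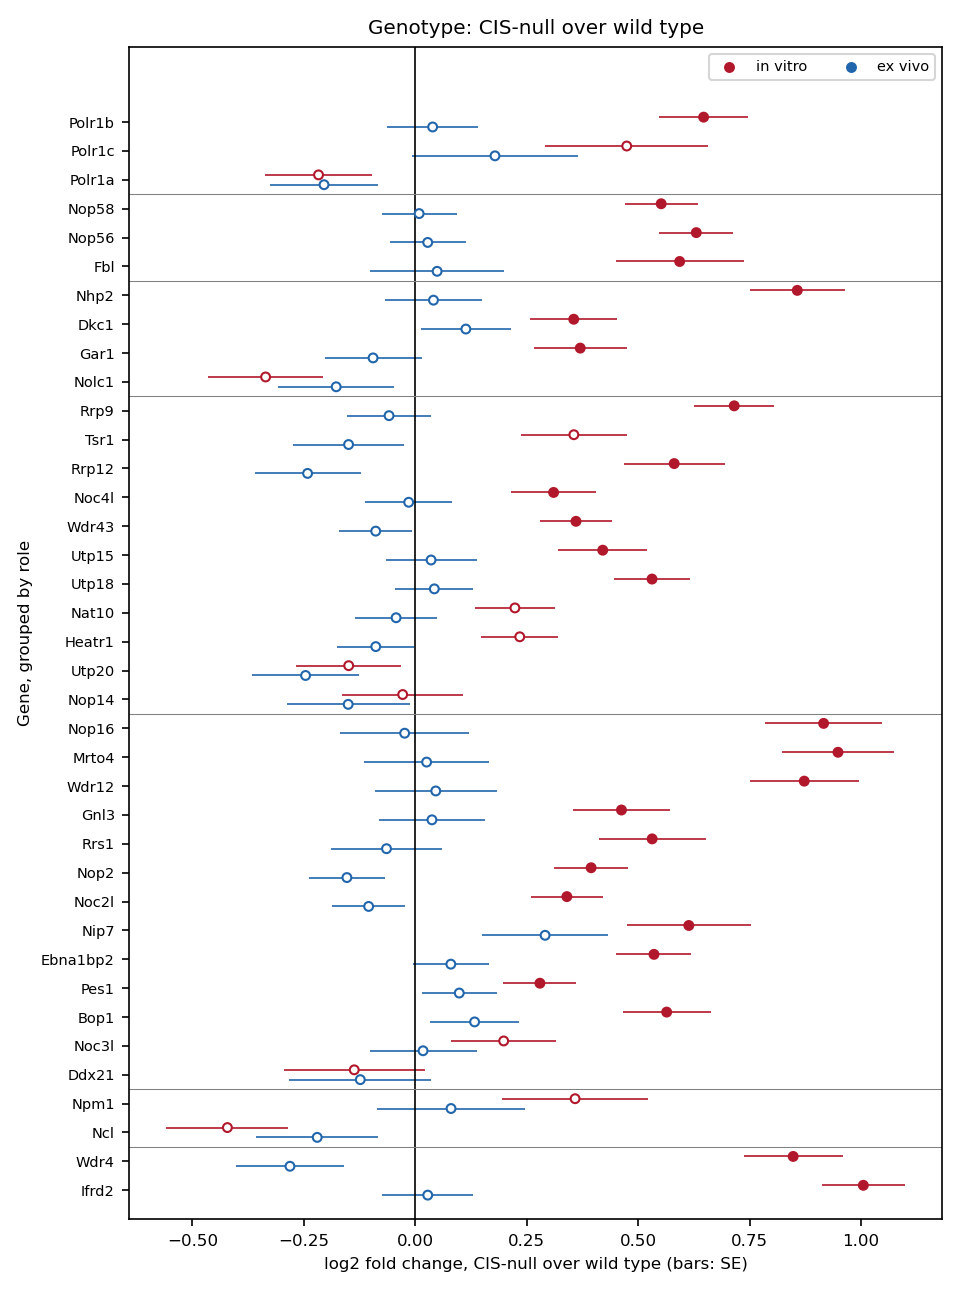
Log2 fold change of each gene, CIS-null over wild type, in vitro (red) and ex vivo (blue), with bars for the SE; filled points passed an edgeR adjusted p of 0.05. The 26 filled points are all in vitro, from 0.28 for Pes1 to 1.01 for Ifrd2, and no ex vivo point is filled.

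The genotype difference in vitro moved with gene length. Across the 38 genes, whose lengths in the count table ran from 930 bases (Mrto4) to 8831 bases (Utp20), Spearman's rho between length and log2 fold change was -0.54, and across all 13184 genes tested it was -0.46, both given as descriptions of points that share the same libraries. Of the 19 shorter genes 16 were higher in CIS-null cells, and of the 19 longer genes 10. The share of all genes of like length that was called was not computed. The median of all genes tested was itself 0.36 in the shortest of 10 length bins and -0.52 in the longest. A like trend lay between the 2 CIS-null in vitro libraries themselves, where the difference of replicate 2 from replicate 1 had a rho of -0.45 with length over all genes, against -0.020 for the wild-type in vitro libraries. The same rho was 0.37 for the CIS-null ex vivo libraries and 0.11 for the wild-type ex vivo libraries. With each library's length trend removed, 28 of the 38 genes were higher and 0 lower. In that fit 10.4% of all genes tested were higher, and 1537 of the 13184 were lower. Heatr1 then stood at 0.62, Utp20 at 0.34 (edgeR adjusted p = 0.0292) and Ncl, at 8257 bases, at 0.05, while Fbl, Gar1 and Noc4l no longer passed. The directions of Utp20, Polr1a, Ddx21 and Ncl by genotype in vitro depended on this setting, with signs below 0 in the main fit and above 0 once the trend was removed.

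**Figure D5:**
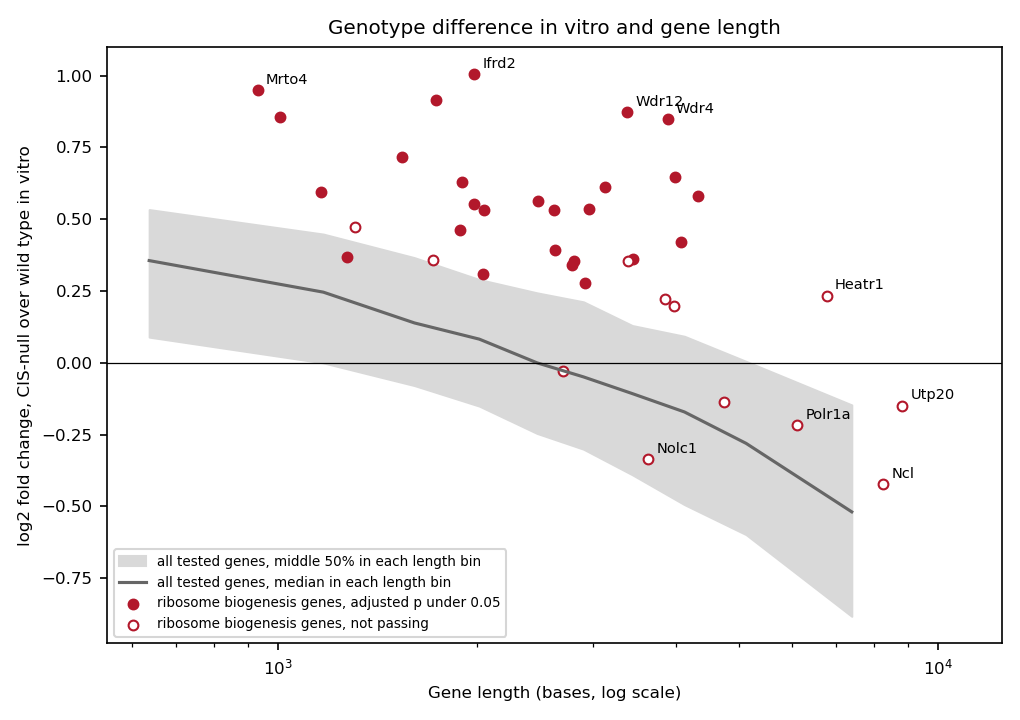
Log2 fold change, CIS-null over wild type in vitro, against gene length (bases, log scale) for the 38 genes, over the median and middle 50% of all tested genes in length bins. Most of the 38 lie above the line of medians at their length, and the longest, Utp20 and Ncl, lie below 0 where the median of all genes is below 0 too.

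Cell type markers also differed by genotype in vitro. The 14 NK cell genes summed to 56200 and 62500 CPM in CIS-null libraries, against 36200 and 33700 CPM in wild-type libraries, but the granzyme genes Gzma and Gzmb carried the difference. Without them the other 12 summed to 11700 and 11700 CPM in CIS-null libraries, against 11100 and 9980 CPM in wild-type libraries. Of the 14, both CIS-null libraries lay above both wild-type libraries for 6 and below them for 6. Among those below, Ncr1 had 476 and 542 CPM in CIS-null libraries, against 694 and 602 CPM in wild-type libraries, and Eomes had 124 and 109 CPM in CIS-null libraries, against 183 and 166 CPM in wild-type libraries. The 14 T cell genes, given above, were higher without overlap for 11 and lower for 2, while 4 of the 14, Cd4 among them, were under 1 CPM in all 4 in vitro libraries. Cd3e had 86.6 and 68.8 CPM in CIS-null libraries, against 9.87 and 3.51 CPM in wild-type libraries. Of the 14 genes of dividing cells, 2 were higher and 6 lower without overlap. Mki67 and Top2a together had 198 and 158 CPM in CIS-null libraries, against 439 and 392 CPM in wild-type libraries, and the other 12 summed to 1400 and 1520 CPM in CIS-null libraries, against 1400 and 1510 CPM in wild-type libraries. The part of these genes in the genotype difference was not tested.

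Ex vivo, CIS-null against wild type, 0 of the 38 genes passed in either direction by edgeR, where 0.0303% of all genes tested were higher and 0.0303% lower. By DESeq2 0 passed as well, and 1, Wdr4, had an unadjusted edgeR p under 0.05, where 6.4% of all genes tested did. The median log2 fold change was -0.00, with 19 genes above 0 and 19 below. Both CIS-null libraries lay above both wild-type libraries for 5 of the 38 and below them for 9, against 22% above and 18.4% below among all genes tested. Wdr4 had 8.38 and 9.80 CPM in CIS-null ex vivo libraries, against 11.3 and 10.9 CPM in wild-type ex vivo libraries (log2 fold change -0.28, SE 0.122, edgeR adjusted p = 0.766). Nip7, a large subunit factor, had 53.4 and 41.0 CPM in CIS-null libraries, against 40.3 and 36.7 CPM in wild-type libraries (0.29, SE 0.142, edgeR adjusted p = 0.766). Utp20 had 24.5 and 26.4 CPM in CIS-null libraries, against 31.0 and 29.3 CPM in wild-type libraries (-0.25, SE 0.120, edgeR adjusted p = 0.766). These were the 3 lowest p-values of the 38, and the libraries of Wdr4, Nip7 and Utp20 did not overlap between genotypes. The genotype difference ex vivo moved with gene length too, with a Spearman rho of -0.46 over the 38 genes and -0.29 over all genes tested. Utp20, at 8831 bases, is the longest of the 38.

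Whether the genotype difference itself changed with culture was tested as an interaction. By edgeR 0 of the 38 genes passed, where 0.0531% of all genes tested were above and 0.0834% below, but 25 of the 38 had an unadjusted p under 0.05, where 19.6% of all genes tested did. DESeq2 called 14, all above 0, and it called 510 of all genes, with 1.55% of all genes tested above. The median interaction was 0.45 on the log2 scale, against -0.04 for all genes tested, and 34 of the 38 values were above 0. These values moved with gene length as well, with a Spearman rho of -0.45 over the 38 genes and -0.37 over all genes tested. The 3 lowest p-values were those of Ifrd2 (0.98, SE 0.138, edgeR adjusted p = 0.0522), Wdr4 (1.13, SE 0.165, edgeR adjusted p = 0.0560) and Rrp9 (0.77, SE 0.130, edgeR adjusted p = 0.0662). With the length trend removed, edgeR called 6, Ifrd2, Wdr4, Rrp9, Nhp2, Rrp12 and Heatr1, and 115 of all genes against 18 in the main fit, with 0.364% of all genes tested above.

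The other genes of the pathway were taken from 5 lists of 134 genes, all of them tested and none of them among the 38. With culture in wild-type cells 73 of the 134 rose and 11 fell, where 32.1% of all genes tested rose and 31.6% fell. In CIS-null cells 90 rose and 16 fell, where 34.8% of all genes tested rose and 37.5% fell. CIS-null against wild type in vitro, 63 were higher and 4 lower, where 11% of all genes tested were higher and 14.6% lower, and ex vivo 0 were called in either direction. The medians were 0.34 and 0.58 for culture in wild-type and CIS-null cells, 0.30 for genotype in vitro and 0.05 for genotype ex vivo.

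Among the other RNA polymerase I genes, 7 of 13 rose and 4 fell with culture in wild-type cells, the 4 being a share near the 31.6% of all genes tested that fell. Taf1d, a subunit of the promoter selectivity factor, had the highest log2 fold change at 1.71 (edgeR adjusted p = 1.96e-05), and Taf1a, another subunit of that factor, the lowest at -0.95 (edgeR adjusted p = 0.00179). In vitro, CIS-null against wild type, 4 were higher and 3 lower. Tcof1, which supports transcription of rRNA genes, had 17.6 and 15.1 CPM in CIS-null in vitro libraries, against 35.7 and 33.2 CPM in wild-type in vitro libraries, a log2 fold change of -1.07 (edgeR adjusted p = 0.00612). Polr1d, shared by RNA polymerases I and III, was highest at 0.55 (edgeR adjusted p = 0.0277). Tcof1 was thus further below wild type in vitro than any of the 38 genes.

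Of 46 other small subunit factors, 22 rose and 3 fell with culture in wild-type cells, from -0.61 for Esf1 to 1.63 for Pno1, and in vitro 24 were higher and 0 lower in CIS-null cells than in wild-type cells. Cirh1a was highest there at 0.75 (edgeR adjusted p = 0.00503), and Esf1 lowest at -0.58 (edgeR adjusted p = 0.061). Of 51 other large subunit factors, 27 rose and 3 fell with culture in wild-type cells, from -0.41 for the helicase Ddx54 to 1.44 for Grwd1. By genotype in vitro 20 were higher and 1 lower, with Nle1 highest at 0.80 (edgeR adjusted p = 0.00458) and Eftud1, a GTPase of late large subunit maturation, the 1 that was lower at -0.34 (edgeR adjusted p = 0.0321).

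Of 10 snoRNP assembly factors, 7 rose and 0 fell with culture in wild-type cells, and 6 were higher and 0 lower in CIS-null than in wild-type cells in vitro. Shq1, a chaperone of the Dkc1 protein, was highest in both, with log2 fold changes of 0.85 with culture and 0.93 by genotype, while Coil stood at 0.03 with culture and Naf1 at -0.00 by genotype. Of 14 genes of the RNA exosome, which trims rRNA precursors, 10 rose and 1 fell with culture in wild-type cells, from -0.25 for the helicase Skiv2l2 to 1.04 for the nuclease Dis3. By genotype in vitro 9 were higher and 0 lower, with Exosc1 highest at 0.63 and Exosc10, which did not pass, lowest at -0.30 (edgeR adjusted p = 0.0736).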

How the data were processed

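RNA sequencing of total RNA was analysed in 8 libraries. Per the submitters' processing notes, reads were processed with Subread, featureCounts and limma against GRCm38/mm10, with no versions. The deposited table holds raw read counts per gene with gene lengths. Log2 RPKM, computed by the authors for 12372 genes and deposited sample by sample, served 1 alternative only, in which 37 of the 38 genes are listed. RPKM values in the text were computed here from counts and lengths. The strand setting and the handling of shared reads are not given in the sources used here.

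The main tool was edgeR 4.0.16 (R 4.3.3). After filterByExpr (minimum count 10, minimum total 15), libraries were scaled by the trimmed mean of M values and fitted with 1 mean per group over all 8 libraries (4 residual degrees of freedom). The 5 comparisons were tested by the quasi-likelihood F test, with Benjamini-Hochberg adjustment over all 13184 tested genes and a threshold of 0.05. Each SE was derived from the fold change and F (log2 fold change divided by the root of F). Alternatives were other scaling, filters, DESeq2 1.42.0, limma 3.58.1 on log2 RPKM, the compared samples alone, a replicate block, removal of each library's length trend (natural spline, 4 degrees of freedom), and each library left out. Scripts were tested on simulated data.

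The 38 genes and all lists were chosen with earlier results of these data known. Values were printed for the 3 highest and 3 lowest genes of each culture comparison and of genotype in vitro, the 3 lowest p-values ex vivo and in the interaction, the highest level per length of each role, and the ends of each other list. Other genes were added after their values were seen. Replicates differed beyond counting noise. Correlations of the deviations of same-numbered libraries ran from -0.18 to 0.12, so the numbers were not used to pair samples.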

Additional observations from a re-analysis of the deposited data

How the results depend on the processing

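Counts of the 38 genes that were higher stayed within 1.5 times the main count for culture in both genotypes under every alternative. For genotype in vitro 26 were higher, but 17 with library totals and 12 to 29 with 1 library left out. The number lower was 2 with library totals, 1 each with DESeq2, with limma on log2 RPKM and with the stricter filter, and 0 to 2 with 1 library left out. For the interaction, the number above was 14 with DESeq2, 6 with the length trend removed, 4 with no filter, 2 with the stricter filter and 0 to 7 with 1 library left out. The causes were not tested.

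The replicate number as a block gave 34 of the 38 genes higher for culture in CIS-null cells and 31 in wild-type cells. It gave 22 for genotype in vitro and 0 for genotype ex vivo and the interaction. Over all genes tested the block called 9257, 7986, 2527, 6 and 6 in that order, against 9539, 8395, 3374, 8 and 18 in the main fit. With the length trend removed as well, 3 were above in the interaction, where 56 of all genes tested were called. The low correlations of same-numbered libraries, given above, cannot exclude a pairing. Length trends of opposite sign within the CIS-null groups also enter them. With the numbers crossed, an alternative chosen after seeing the data, 35 were higher for culture in CIS-null cells.

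Signs turned for few genes. With the length trend removed, genotype in vitro was 0.12 for Polr1a, 0.34 for Utp20, 0.0922 for Ddx21 and 0.0515 for Ncl, and with the block as well 0.12, 0.34, 0.0920 and 0.0524. Nop14 was 0.00728 with no filter, 0.0636 with limma on log2 RPKM and -0.0891 to 0.0715 with 1 library left out, and Ddx21 was -0.318 to 0.0236 with 1 left out. For culture in CIS-null cells Ddx21 was -0.0569 with library totals and -0.136 to 0.307 with 1 library left out, and in wild-type cells -0.0151 to 0.140. Where a group kept 1 library, it was taken to vary like the others.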
